A study of Mus musculus with 4 samples.

Results

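The nuclear genes of the mitochondrial respiratory chain were followed by complex and by cell class in single-cell RNA-seq of mouse popliteal lymphatic vessels (PLVs) and the adjacent saphenous vein. Members were all genes whose symbols in the WT gene list begin with Nduf (without the Ndufaf assembly factors), Uqcr, Cox4 to Cox8 or Atp5, plus *Sdha*, *Sdhb*, *Sdhc* and *Sdhd*, and that are also in the TNF-Tg list. The rule used names and no measured value. It gave 86 of 32287 listed genes, with 39 in complex I, 4 in complex II, 8 in complex III, 18 in complex IV and 17 in complex V. GENCODE M21 marks 85 of them as protein coding, and *Ndufb1-ps* as a non-coding gene. The list of the tdT1 library held 85 of the members and lacked *Ndufb1-ps*.

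The respiratory chain passes electrons from NADH (complex I) and succinate (complex II) through complex III to oxygen at complex IV, and complex V uses the resulting proton gradient to make ATP. Most subunits are nuclear genes, translated in the cytosol and imported, while a small set of core subunits of complexes I, III, IV and V is encoded by mitochondrial DNA. Smooth muscle draws on oxidative phosphorylation for tone and contraction, resting tissue macrophages use it heavily, and neutrophils carry few mitochondria and depend mainly on glycolysis.

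Each of the 4 libraries was made from the pooled vessels of 3 mice on a C57BL6 background, with dead cells gated out. A pair of replicates, tdT1 and tdT2, held tdT+ cells sorted from Cspg4-Cre mice of both sexes with an Ai9-tdTomato reporter, more than 8 months old. In these mice, Cre is driven by the promoter of *Cspg4* (NG2), a gene of mural and other perivascular cells. Male mice, 9 months old by the labels, gave the WT and the TNF-Tg library, whose cells were sorted on scatter without a reporter. TNF-Tg mice carry a human TNF transgene and develop chronic inflammatory-erosive arthritis, and WT mice served as their controls. TNF-Tg and WT were 1 library each, so their difference has no p-value, and condition cannot be told apart from library.

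The libraries held 454 to 5488 cells and 2357031 to 68773605 counts of unique molecular identifiers (UMIs), with medians of 4932.5 to 12660 UMIs per cell. The tdT1 library stood apart, with 516 of 1504 cells above 10% mitochondrial UMIs, a different sequencer and a different gene list. Libraries shared between 0 and 5 cell barcodes. Of 21 clusters made without the members as features, 16 had enough markers for a name, and 6 of the classes were chosen for the comparison of TNF-Tg with WT: lymphatic muscle cell (LMC)-like, vascular smooth muscle cell (VSMC)-like, inflammatory monocyte-like and neutrophil-like cells, and macrophage-like cells of an M1 and an M2 kind. Their marker lists hold genes that the study picked from these same libraries. The contractile genes *Acta2*, *Myh11*, *Tagln*, *Cnn1*, *Des* and *Lmod1* summed to only 37.1 counts per 1000000 UMIs (CPM) in WT and 29.9 in TNF-Tg LMC-like cells, and to 2.32 and 9.89 CPM in VSMC-like cells. Between 1 and 3 of these 6 genes were at 0 in those sums, so the smooth muscle names rest on the marker lists and not on contractile genes. WT neutrophil-like cells had a higher contractile sum, 92.9 CPM. The stromal genes *Col1a2*, *Dcn* and *Pdgfra* summed to 26330 CPM in WT LMC-like and 33630 CPM in WT VSMC-like cells. The paper describes its LMCs and VSMCs as myofibroblast-like and could not fully exclude myofibroblast contaminants. Smooth muscle identity is thus not shown here, and muscle-like is only a label below.

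Promoters are shown for the members that lay at the ends of the TNF-Tg to WT comparison, *Atp5g1*, *Atp5k* and *Cox7a2l*, and for *Sdhd*, whose window held 3 of the motifs searched. RefSeq gave windows of 300 bases (250 before and 50 after the start) on GRCm38.p6 for 70 of the 86 members, 75 windows in all. Each was searched on both strands for NRF1 (GCGCA, any base, GCGC), GABPA/ETS (CCGGAAG), YY1 (AANATGGCG) and SP1 (GGGCGG), factors known to bind promoters of mitochondrial genes. Capitals mark the matches, sequences run 5′ to 3′ on the gene's strand, and all 4 genes lie on the minus strand.
Atp5g1, chr11:96075582-96075881: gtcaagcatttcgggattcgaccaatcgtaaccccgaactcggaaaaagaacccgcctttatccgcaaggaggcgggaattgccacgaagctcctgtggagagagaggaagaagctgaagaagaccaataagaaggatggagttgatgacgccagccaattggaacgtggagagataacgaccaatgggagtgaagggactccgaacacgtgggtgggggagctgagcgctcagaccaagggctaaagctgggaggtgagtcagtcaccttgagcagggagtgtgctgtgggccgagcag
Atp5k, chr5:108434350-108434649: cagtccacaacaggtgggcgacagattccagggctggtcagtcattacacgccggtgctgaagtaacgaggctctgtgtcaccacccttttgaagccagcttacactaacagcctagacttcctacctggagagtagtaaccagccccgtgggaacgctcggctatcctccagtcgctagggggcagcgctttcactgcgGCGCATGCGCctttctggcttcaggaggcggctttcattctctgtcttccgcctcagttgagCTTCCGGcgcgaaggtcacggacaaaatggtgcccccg
Sdhd, chr9:50603800-50604099: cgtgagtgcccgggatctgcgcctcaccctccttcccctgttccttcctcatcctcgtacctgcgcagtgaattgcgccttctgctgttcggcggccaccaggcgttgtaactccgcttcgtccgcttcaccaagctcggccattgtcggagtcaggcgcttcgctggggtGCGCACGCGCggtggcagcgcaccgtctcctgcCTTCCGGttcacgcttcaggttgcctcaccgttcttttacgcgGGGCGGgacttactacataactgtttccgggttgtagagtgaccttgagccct
Cox7a2l, chr17:83514284-83514583: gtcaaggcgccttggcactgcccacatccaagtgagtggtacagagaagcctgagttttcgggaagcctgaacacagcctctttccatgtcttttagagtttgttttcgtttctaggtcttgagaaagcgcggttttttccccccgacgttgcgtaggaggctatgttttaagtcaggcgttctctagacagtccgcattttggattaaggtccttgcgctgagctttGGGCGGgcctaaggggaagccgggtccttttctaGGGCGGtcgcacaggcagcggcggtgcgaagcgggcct

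The NRF1 motif was in 24.0% of the members' windows against 4.60% of 32851 RefSeq windows of the same length. For GABPA/ETS the shares were 22.7% and 8.86%, for YY1 13.3% and 2.38%, and for SP1 40.0% and 35.7%. Of the windows printed, that of *Atp5g1* held none of the 4 motifs, that of *Atp5k* held NRF1 and GABPA/ETS, that of *Sdhd* held NRF1, GABPA/ETS and SP1, and that of *Cox7a2l* held SP1. A match is a run of letters and not a measured binding site.

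The share of all UMIs that came from the members was higher in TNF-Tg than in WT in each of the 6 classes. In LMC-like cells the share was 1.20% (tdT1), 1.86% (tdT2), 1.63% (WT, 1414 cells) and 2.41% (TNF-Tg) (519 cells). In VSMC-like cells it was 1.29%, 2.07%, 1.89% (659 cells) and 3.13% (505 cells) in the same order. TNF-Tg thus had the highest share of the 4 libraries in both, and tdT1 the lowest. In M2-macrophage-like cells the share was 0.569% (tdT1), 2.03% (tdT2), 1.92% (WT) and 2.91% (TNF-Tg), and in M1-macrophage-like cells 1.32%, 2.17%, 1.96% and 3.64%. Neutrophil-like cells held 0.684%, 1.33%, 0.985% and 1.23%, the lowest share of the 6 classes in each library but tdT1, and TNF-Tg lay below tdT2 there. Inflammatory monocyte-like cells held 1.67%, 2.76%, 2.78% and 3.36%. The exact Poisson interval (95%) of the LMC-like share was 1.62% to 1.63% in WT and 2.40% to 2.42% in TNF-Tg, and it covers counting error only.

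**Figure D1:**
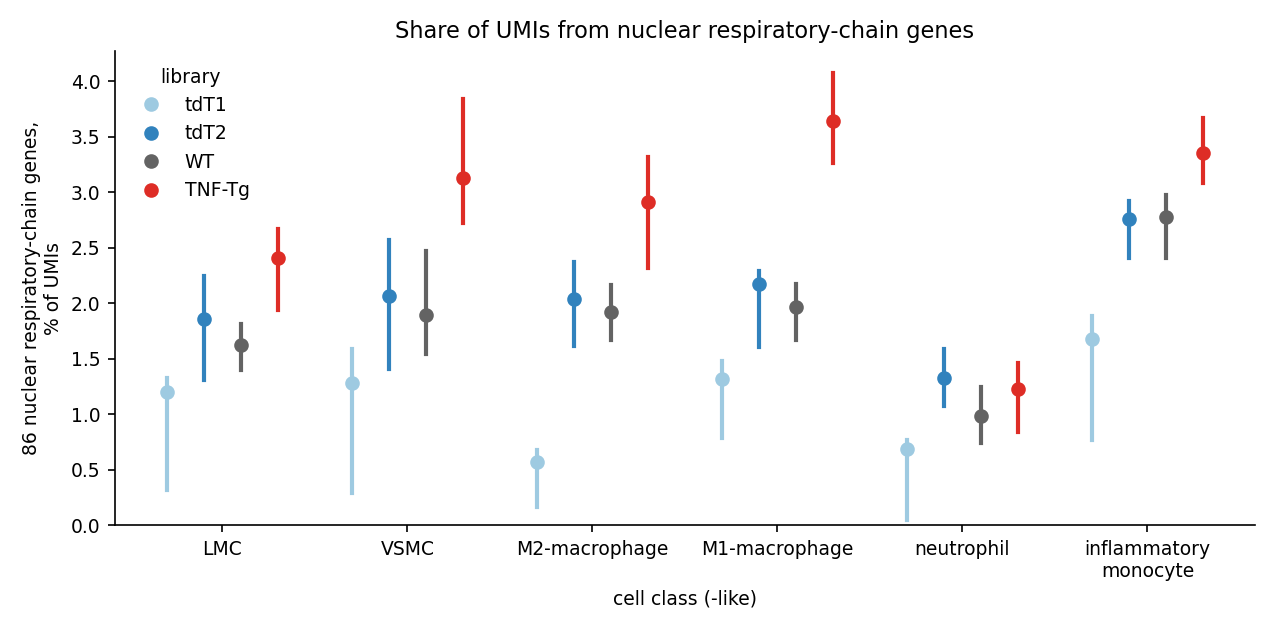
Share of UMIs from the 86 members (y axis, %) in each cell class (x axis) and library. Points are the share in the summed UMIs of a class and bars run from the first to the third quartile of its cells; TNF-Tg had the highest point in 5 of the 6 classes and tdT1 the lowest in all 6.

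The higher share also stood in counts per cell. Members gave 268 UMIs per LMC-like cell in WT and 335.6 in TNF-Tg, although the median depth of these cells was 16181 UMIs in WT and 12422 in TNF-Tg. The members gave 198.5 and 325.8 UMIs per VSMC-like cell, 245.1 and 348 per M2-macrophage-like cell, and 238.4 and 537.7 per M1-macrophage-like cell. Median depth was 10766 and 9705 UMIs in VSMC-like and 12554 and 11013 in M2-macrophage-like cells. In M1-macrophage-like cells it was 12397.5 in WT and 14704 in TNF-Tg, so counts per cell there also carry the greater depth. In each class, most TNF-Tg cells had a members' share above the WT median. These were 92.5% of LMC-like, 89.9% of VSMC-like, 90.9% of M2-macrophage-like and 97.3% of M1-macrophage-like cells. In neutrophil-like cells they were 65.5%, and in inflammatory monocyte-like cells 94.35%. The 90th percentile of WT cells was exceeded by 68.4% of TNF-Tg LMC-like cells, 38.2% of VSMC-like, 70.7% of M2-macrophage-like and 96.1% of M1-macrophage-like cells. The corresponding shares were 18.6% in neutrophil-like and 26.6% in inflammatory monocyte-like cells. In tdT2, 33.0% of 94 LMC-like cells and 11.1% of 108 VSMC-like cells also lay above that WT level.

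For each gene, the log2 ratio of CPM in TNF-Tg over WT was computed where both libraries had at least 1 UMI and together at least 20. A gene was counted as higher or lower past 1.5-fold. In LMC-like cells, 81 members were measurable, and 43 were higher and 1 was lower, where the shares over all 12375 genes tested were 12.6% higher and 15.7% lower. In VSMC-like cells, 56 of 81 were higher and 2 lower, against 12.5% and 29.4% of all genes. In M2-macrophage-like cells, 41 of 81 were higher and 2 lower, against 17.2% and 14.2%. In M1-macrophage-like cells, 68 of 81 were higher and 2 lower, against 16.2% and 29.7%. The higher members thus exceeded the share over all genes in these 4 classes. In neutrophil-like cells, 23 of 71 were higher and none lower, against 18.0% and 19.7%. With at least 100 UMIs over both libraries, 9 of 48 members were past 1.5-fold there. At 10 to 100 CPM in WT, 47.4% of members and 16.4% of all genes were higher in that class. At 100 to 1000 CPM the shares were 9.68% and 8.64%. In inflammatory monocyte-like cells only 7 of 79 were higher and none lower, against 14.3% and 16.5%. The monocyte count was below the share over all genes, although 69 of its 79 ratios were above 0.

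The members' median log2 ratio was 0.60 in LMC-like, 0.71 in VSMC-like, 0.59 in M2-macrophage-like, 0.86 in M1-macrophage-like, 0.43 in neutrophil-like and 0.31 in inflammatory monocyte-like cells. Over all genes tested in the same classes the medians were −0.04, −0.21, 0.05, −0.17, −0.05 and −0.03. Of the 71 members measurable in all 6 classes, 55 had a ratio above 0 in each, where 14.6% of 4518 such genes did, and *Cox7a2l* was the 1 member with a ratio below 0 in each. Of 80 measurable in LMC-like, VSMC-like and both macrophage-like classes, 29 were past 1.5-fold higher in all 4, against 3.45% of the 9284 genes measurable in them. Among these 29 were all 3 genes of the ATP synthase c ring (*Atp5g1*, *Atp5g2*, *Atp5g3*), *Cox5a* and *Cox5b* of complex IV, *Ndufs8* and *Ndufv2* of the complex I core, and *Uqcrc1* of complex III. None of the 4 members of complex II was among them. The members *Cox4i2*, *Cox7b2*, *Cox8b* and *Cox8c* were below the minimum in all classes. All classes compare the same WT library with the same TNF-Tg library, so agreement over classes is not replication. The 14.6% and 3.45% are over genes of all transcript lengths.

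**Figure D2:**
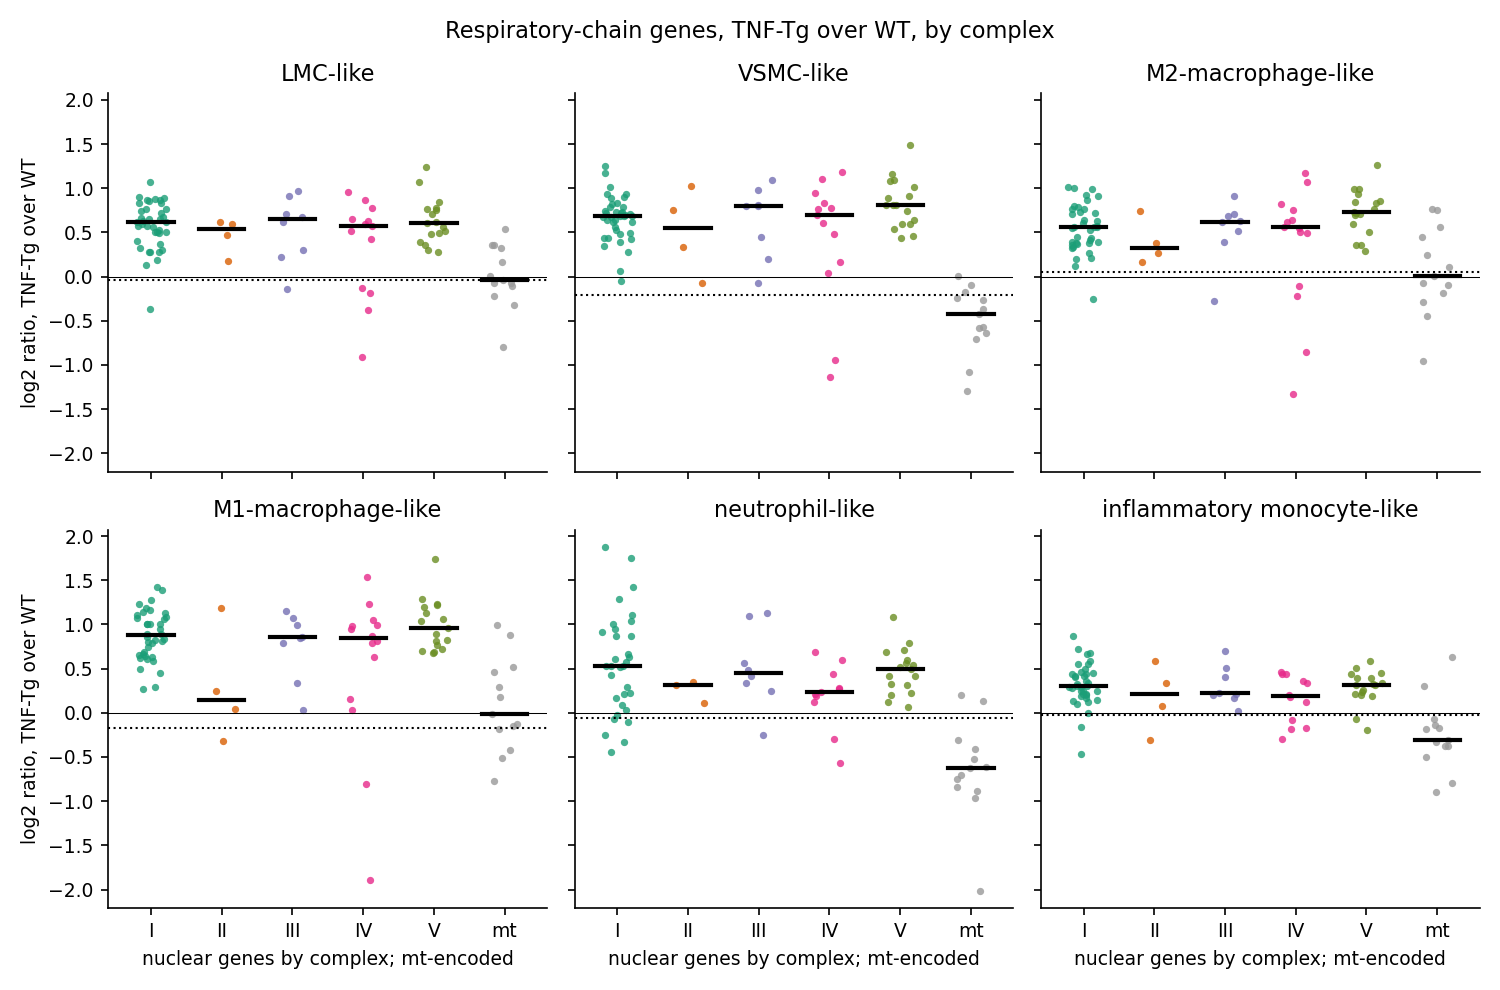
Log2 ratio of CPM in TNF-Tg over WT (y axis) for nuclear genes of complexes I to V and for mitochondrially encoded subunits (mt, x axis) in 6 cell classes. Each point is a gene, black bars are medians and the dotted line is the median of all genes tested. The medians of complexes I to V lie above that line in all 6 panels. Those of the mitochondrial genes lie near or below it except in M1-macrophage-like cells.

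The replicate tdT libraries give the only measure of how far such ratios move between libraries of 1 group. The members' share was 1.53% ± 0.468 (SD, n = 2) in LMC-like and 1.68% ± 0.552 (SD, n = 2) in VSMC-like cells of the tdT libraries. In both classes the WT share lay within 1 SD of the tdT mean and the TNF-Tg share lay above it, but 2 libraries do not set a range. Of the other classes, only neutrophil-like cells had a TNF-Tg share (1.23%) within 1 SD of the tdT mean (1.005% ± 0.453, SD, n = 2). The members' median log2 ratio of tdT2 over tdT1 was 0.61 in LMC-like cells, with 41 of 79 higher and 1 lower past 1.5-fold, while the median of all genes was −0.01. Of all 10264 genes tested there, 2014 were higher and 2214 lower. In VSMC-like cells the members' median was 0.69, with 48 of 79 higher and 1 lower, and the median of all genes was −0.04. Of all 8675 genes tested there, 1675 were higher and 2048 lower. The replicates therefore differed in the members by about as much as TNF-Tg and WT did. The tdT libraries also differed in nozzle, sequencer, Cell Ranger version and damaged cells. Without cells above 10% mitochondrial UMIs, the log2 ratio of the summed share in tdT2 over tdT1 was 0.56 in LMC-like and 0.59 in VSMC-like cells, from 0.63 and 0.68 with them. In the remaining classes, where a tdT library had at most 42 cells, the median ran from 0.69 in M1-macrophage-like to 2.01 in M2-macrophage-like cells.

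Across members, the ratio between replicates and the ratio of TNF-Tg over WT were correlated in LMC-like cells (Pearson's r of 0.60, Spearman's rho of 0.54, 79 genes) and more weakly in VSMC-like cells (r of 0.33, rho of 0.35, 79 genes). Over all genes the values were r of 0.24 in LMC-like cells (10239 genes) and r of 0.33 in VSMC-like cells (8640 genes). The 2 ratios share no library, genes are not independent replicates, and no p is given. *Atp5g1* was far up both axes in both classes and *Cox7a2l* was below 0 on both axes in both classes.

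**Figure D3:**
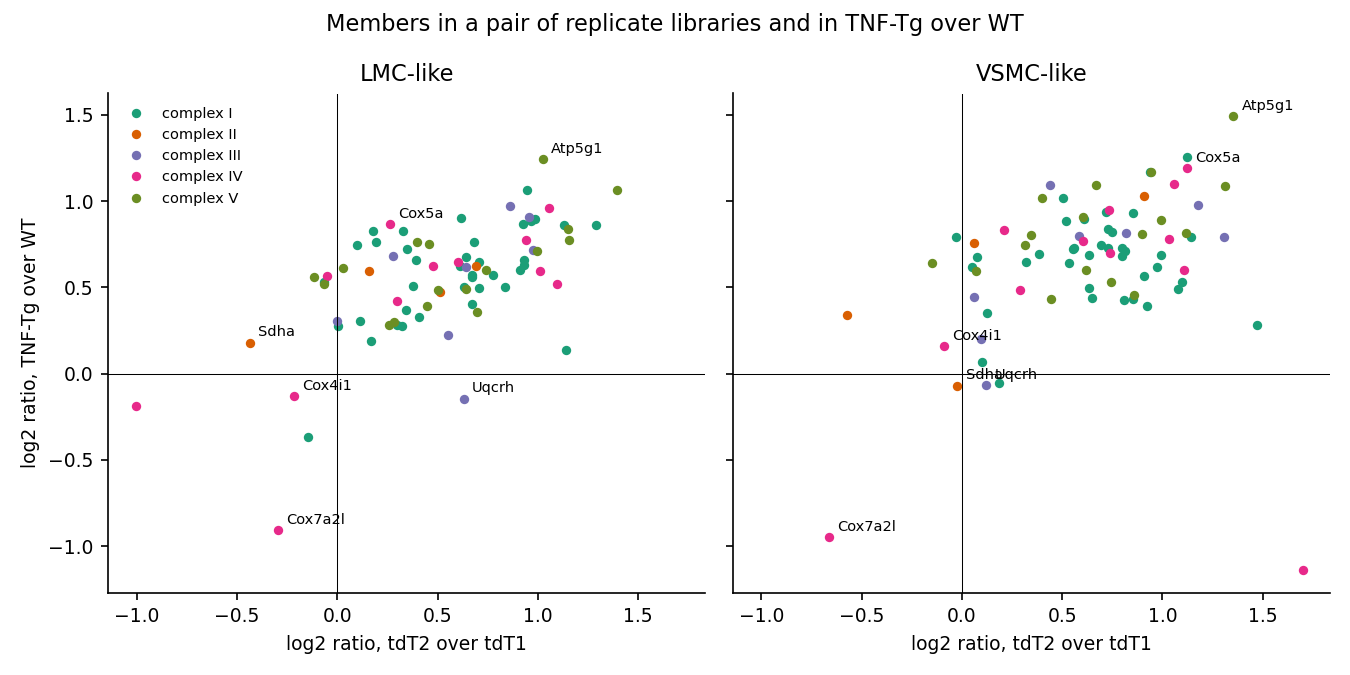
Log2 ratio of TNF-Tg over WT (y axis) against log2 ratio of tdT2 over tdT1 (x axis) for members with at least 20 UMIs in each pair, in LMC-like and VSMC-like cells. Colors mark the complexes; most points lie above 0 on both axes, with medians of 0.60 (y) and 0.61 (x) in LMC-like cells.

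Most members are short transcripts, and over all genes the ratio of TNF-Tg over WT was lower for longer transcripts. Length was that of the longest protein-coding transcript in GENCODE M21, such as 4715 bases for *Atp5g1*, 4371 for *Ndufb2* and 1521 for *Uqcrq*. Which transcript the cells expressed was not measured. Members expressed as shorter transcripts would be set against genes of a longer bin. For all genes up to 1000 bases, the median log2 ratio was 0.40 in LMC-like, 0.51 in VSMC-like, 0.36 in M2-macrophage-like, 0.62 in M1-macrophage-like, 0.31 in neutrophil-like and 0.17 in inflammatory monocyte-like cells. The members of that length had medians of 0.62, 0.74, 0.59, 0.82, 0.37 and 0.25. For all genes over 4000 bases the medians were −0.25, −0.55, −0.09, −0.47, −0.23 and −0.19. Against genes of 1000 to 2000 bases, where all genes had medians of 0.23 in LMC-like and 0.23 in VSMC-like cells, the 24 members had 0.51 and 0.64. The medians of members up to 1000 bases thus lay above those of all genes of that length in each class, by less than the members' medians lay above those of all genes. Past 1.5-fold, 60.9% of these short members and 33.2% of all short genes were higher in LMC-like cells, and 84.8% and 51.1% in M1-macrophage-like cells. In neutrophil-like cells the shares were 28.6% and 31.5%, and in inflammatory monocyte-like cells 6.82% and 14.5%, so short members were not more often higher than short genes there. With the median of the short genes set to 0, an alternative chosen after the data were seen, the members' median was 0.19 in LMC-like, 0.20 in VSMC-like, 0.23 in M2-macrophage-like, 0.25 in M1-macrophage-like, 0.12 in neutrophil-like and 0.14 in inflammatory monocyte-like cells. On that scale, 4 of the 44 members past 1.5-fold in either direction in LMC-like cells were still past it, 10 of 58 in VSMC-like, 10 of 43 in M2-macrophage-like, 13 of 70 in M1-macrophage-like, 12 of 23 in neutrophil-like and 1 of 7 in inflammatory monocyte-like cells.

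**Figure D4:**
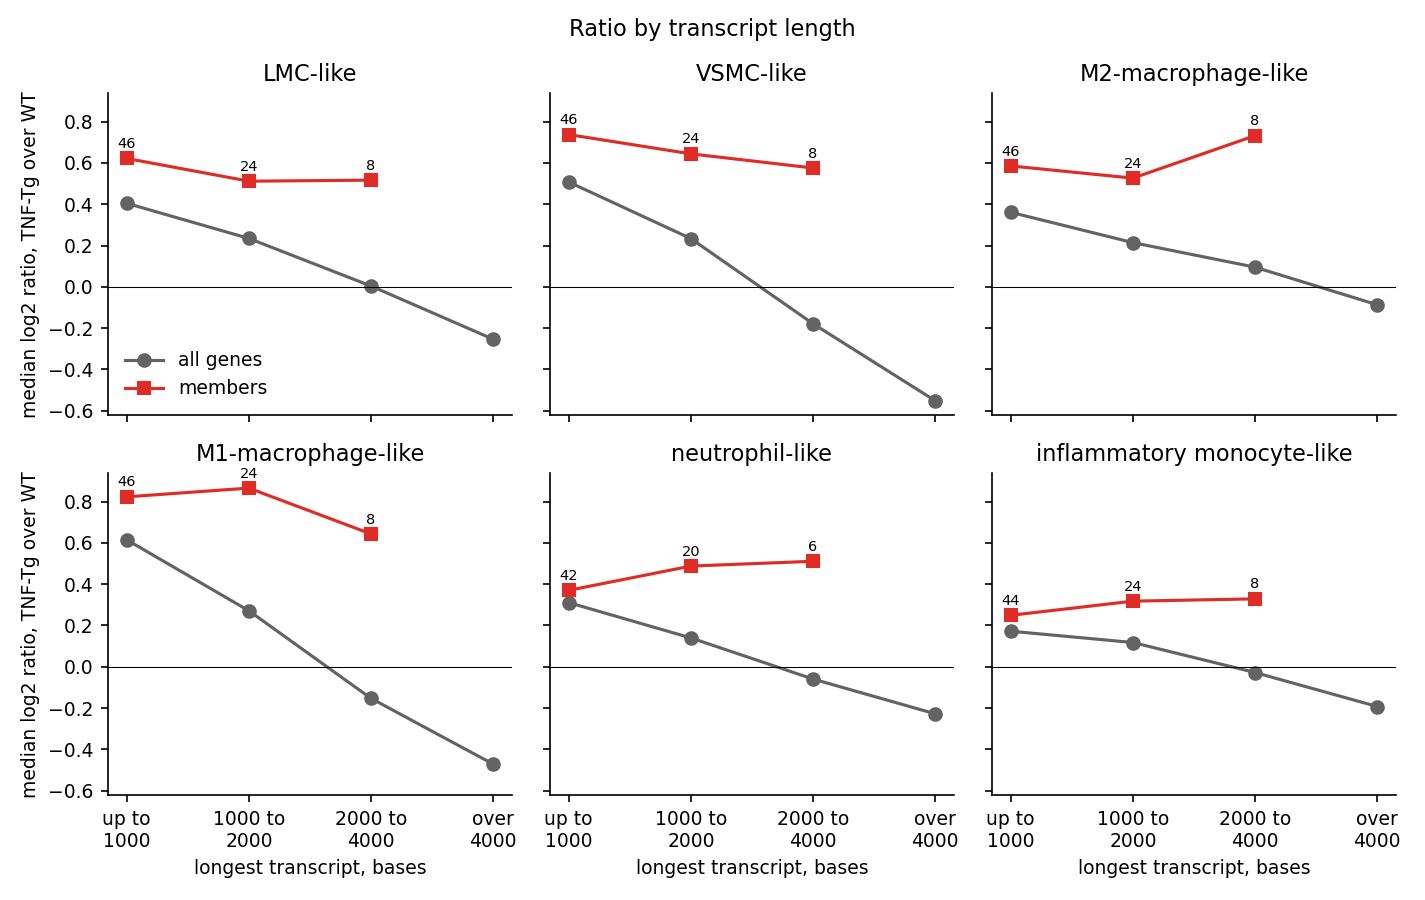
Median log2 ratio of TNF-Tg over WT (y axis) for all genes and for members, by length of the longest protein-coding transcript (x axis, bases), in 6 cell classes. Numbers beside the squares count members, and the members' bin over 4000 bases, which holds only 2 genes, is not drawn; the line of all genes falls from left to right in each panel.

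Other signals differed between TNF-Tg and WT in the same classes. The handling-response genes *Fos*, *Jun*, *Egr1*, *Hspa1a* and *Hspa1b* summed to 2575 CPM in WT against 1728 in TNF-Tg LMC-like cells, to 2355 and 1759 CPM in VSMC-like cells. In M1-macrophage-like cells the sums were 4955 CPM for WT against 2178 for TNF-Tg. In LMC-like cells they summed to 10800 CPM in tdT1 and 2905 CPM in tdT2, and in each class but the inflammatory monocyte-like the tdT library with the lower members' share, tdT1, had the higher sum. There the sums were 2158 CPM in tdT1 and 4832 in tdT2. The leukocyte genes *Ptprc*, *Lyz2* and *Tyrobp* summed to 80.7 CPM in WT against 109 in TNF-Tg LMC-like cells and to 89.4 and 123 CPM in VSMC-like cells, all 3 above 0 in each, and in M2-macrophage-like cells to 10010 and 5138 CPM. The stromal genes *Col1a2*, *Dcn* and *Pdgfra* summed to 26330 CPM in WT against 19340 in TNF-Tg LMC-like cells and to 33630 and 19130 CPM in VSMC-like cells. Their part in the members' ratios was not tested.

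Complex I, the NADH dehydrogenase that begins the chain, had medians of 0.62 in LMC-like, 0.69 in VSMC-like, 0.56 in M2-macrophage-like, 0.88 in M1-macrophage-like, 0.53 in neutrophil-like and 0.31 in inflammatory monocyte-like cells. Past 1.5-fold, 21 of 39 members were higher in LMC-like cells, 27 of 39 in VSMC-like cells and 34 of 38 in M1-macrophage-like cells, and none was lower. Over all genes tested, 12.6%, 12.5% and 16.2% were higher in these classes, and 15.7%, 29.4% and 29.7% were lower. Of all genes up to 1000 bases, 33.2%, 44.5% and 51.1% were higher. *Ndufs8* (chromosome 19, 3908863 to 3912774), an iron-sulfur subunit of the electron-carrying core, stood at 28.3 CPM (tdT1), 54.7 (tdT2), 37.6 (WT) and 78.7 (TNF-Tg) in LMC-like cells. Its log2 ratio of TNF-Tg over WT was 1.07 (conditional binomial interval, 95%, 0.91 to 1.22). In VSMC-like cells it stood at 38.6, 74.0, 63.7 and 143 CPM, a log2 ratio of 1.17. TNF-Tg was the highest library in both classes, and tdT2 lay above WT. The core subunits *Ndufs1* and *Ndufs3* had smaller ratios in LMC-like cells, at 0.28 and 0.50. The flavin-site pair *Ndufv1* and *Ndufv2* had ratios of 0.74 and 0.76, and *Ndufs7* one of 0.51.

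The accessory subunits of complex I covered a wider range. *Ndufb8*, a membrane-arm subunit, was at 239.4 CPM in WT against 640.0 in TNF-Tg M1-macrophage-like cells, a log2 ratio of 1.42 (1.33 to 1.51), with 113.5 CPM in tdT1 and 337.8 in tdT2. *Ndufb2* was second among complex I members there, at 114.9 CPM in WT against 302.1 in TNF-Tg (1.39). *Ndufa3* was highest in VSMC-like cells, at 118.6 CPM (tdT1), 258.2 (tdT2), 216.2 (WT) and 515.3 (TNF-Tg) (1.25, interval 1.16 to 1.35). *Ndufa6* went the other way in LMC-like cells, at 208.4, 188.5, 211.7 and 163.9 CPM (−0.37, interval −0.46 to −0.28). TNF-Tg was the lowest of the 4 libraries for this gene in LMC-like cells, while in M1-macrophage-like cells it was the highest, at 352.6 CPM against 287.5 in WT. *Ndufa4*, which is now mostly assigned to complex IV, was at 332.8 CPM in WT against 608.0 in TNF-Tg LMC-like cells (0.87).

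Complex II, the succinate dehydrogenase shared with the tricarboxylic acid cycle, is the 1 complex with no mitochondrially encoded subunit. Its 4 members had a median log2 ratio of 0.53 in LMC-like, 0.55 in VSMC-like, 0.32 in M2-macrophage-like and 0.14 in M1-macrophage-like cells. *Sdha*, the flavoprotein (chromosome 13, 74322254 to 74350280), was at 77.2 CPM (tdT1), 75.9 (tdT2), 74.7 (WT) and 71.1 (TNF-Tg) in VSMC-like cells (−0.07, interval −0.27 to 0.13). These 4 values lay close together, and the interval included 0. In M1-macrophage-like cells *Sdha* was at 84.9 CPM in WT against 68.1 in TNF-Tg (−0.32, interval −0.52 to −0.12), while *Sdhb*, the iron-sulfur subunit, was at 127.4 and 289.2 CPM (1.18, interval 1.06 to 1.31). The membrane anchors *Sdhc* and *Sdhd* had ratios of 0.04 and 0.24 in those cells. Within this class, the ratio of *Sdhb* thus stood apart from those of the other 3 subunits.

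Complex III, which passes electrons from ubiquinol to cytochrome c, had medians of 0.65 in LMC-like, 0.80 in VSMC-like, 0.62 in M2-macrophage-like and 0.85 in M1-macrophage-like cells. *Uqcrc1*, a core subunit, was at 54.5 CPM (tdT1), 66.0 (tdT2), 59.8 (WT) and 95.9 (TNF-Tg) in LMC-like cells (0.68). *Uqcrq*, a small subunit also drawn in the plot of members and chosen after its values were seen, was at 128.9, 233.7, 212.2 and 415.5 CPM in the same libraries (0.97). TNF-Tg was the highest of the 4 libraries for both genes. The ratios of the partners of *Uqcrc1* were smaller there, at 0.31 for the core subunit *Uqcrc2* and 0.23 for the Rieske protein gene *Uqcrfs1*. In inflammatory monocyte-like cells *Uqcrfs1* was among the 3 highest members with at least 200 UMIs, at 174.8 CPM in WT against 282.9 in TNF-Tg (0.70, interval 0.44 to 0.96). *Uqcrh*, the hinge protein, did not share the shift. It was at 376.1 CPM (tdT1), 582.4 (tdT2), 509.3 (WT) and 460.7 (TNF-Tg) in LMC-like cells (−0.14, interval −0.20 to −0.09), and its ratios ran from −0.28 to 0.04 over the 6 classes.

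Complex IV, cytochrome c oxidase, had the widest range of ratios of the 5 complexes in the muscle-like and macrophage-like classes, while complex I had it in neutrophil-like and inflammatory monocyte-like cells. Its medians were 0.57 in LMC-like, 0.70 in VSMC-like, 0.56 in M2-macrophage-like and 0.84 in M1-macrophage-like cells. *Cox5a* (chromosome 9, 57521274 to 57532426), a nuclear subunit on the matrix side, was at 82.9 CPM (tdT1), 180.4 (tdT2), 141.8 (WT) and 323.4 (TNF-Tg) in VSMC-like cells (1.19, interval 1.07 to 1.30). In M2-macrophage-like cells it was at 280.0 CPM in WT against 587.1 in TNF-Tg (1.07, interval 0.99 to 1.15). *Cox5b* was at 179.3, 373.2, 258.3 and 501.5 CPM in LMC-like cells (0.96). TNF-Tg was thus the highest library for both genes, and tdT2 lay above WT and far above tdT1 for *Cox5b* in LMC-like cells.

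*Cox4i1*, the ubiquitous isoform of subunit 4, was at 604.8 CPM (tdT1), 520.2 (tdT2), 583.3 (WT) and 532.2 (TNF-Tg) in LMC-like cells (−0.13, interval −0.18 to −0.08). The TNF-Tg value lay between those of the tdT replicates. Its ratio was 0.16 in VSMC-like and 0.15 in M1-macrophage-like cells and −0.19 in inflammatory monocyte-like cells, so it stayed within a narrow range around 0.

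*Cox7a2l* (chromosome 17, 83501918 to 83517330), also called SCAF1, is named for a role in joining complexes III and IV into supercomplexes, not measured here. It was at 252.5 CPM (tdT1), 205.4 (tdT2), 266.1 (WT) and 141.8 (TNF-Tg) in LMC-like cells (−0.91). In VSMC-like cells it was at 306.3, 193.6, 188.8 and 97.96 CPM (−0.95), and the M2-macrophage-like values were 172.1, 139.1, 265.7 and 106.1 CPM (−1.32, interval −1.49 to −1.16). In these 3 classes and in M1-macrophage-like cells, TNF-Tg had the lowest value of the 4 libraries, whereas in inflammatory monocyte-like cells it lay at 273.4 CPM, above the 231.1 CPM of tdT2. Its related gene *Cox7a2*, the common isoform of subunit 7a, had a ratio of 0.65 in LMC-like cells, at 248.4 CPM in WT against 389.3 in TNF-Tg.

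**Figure D5:**
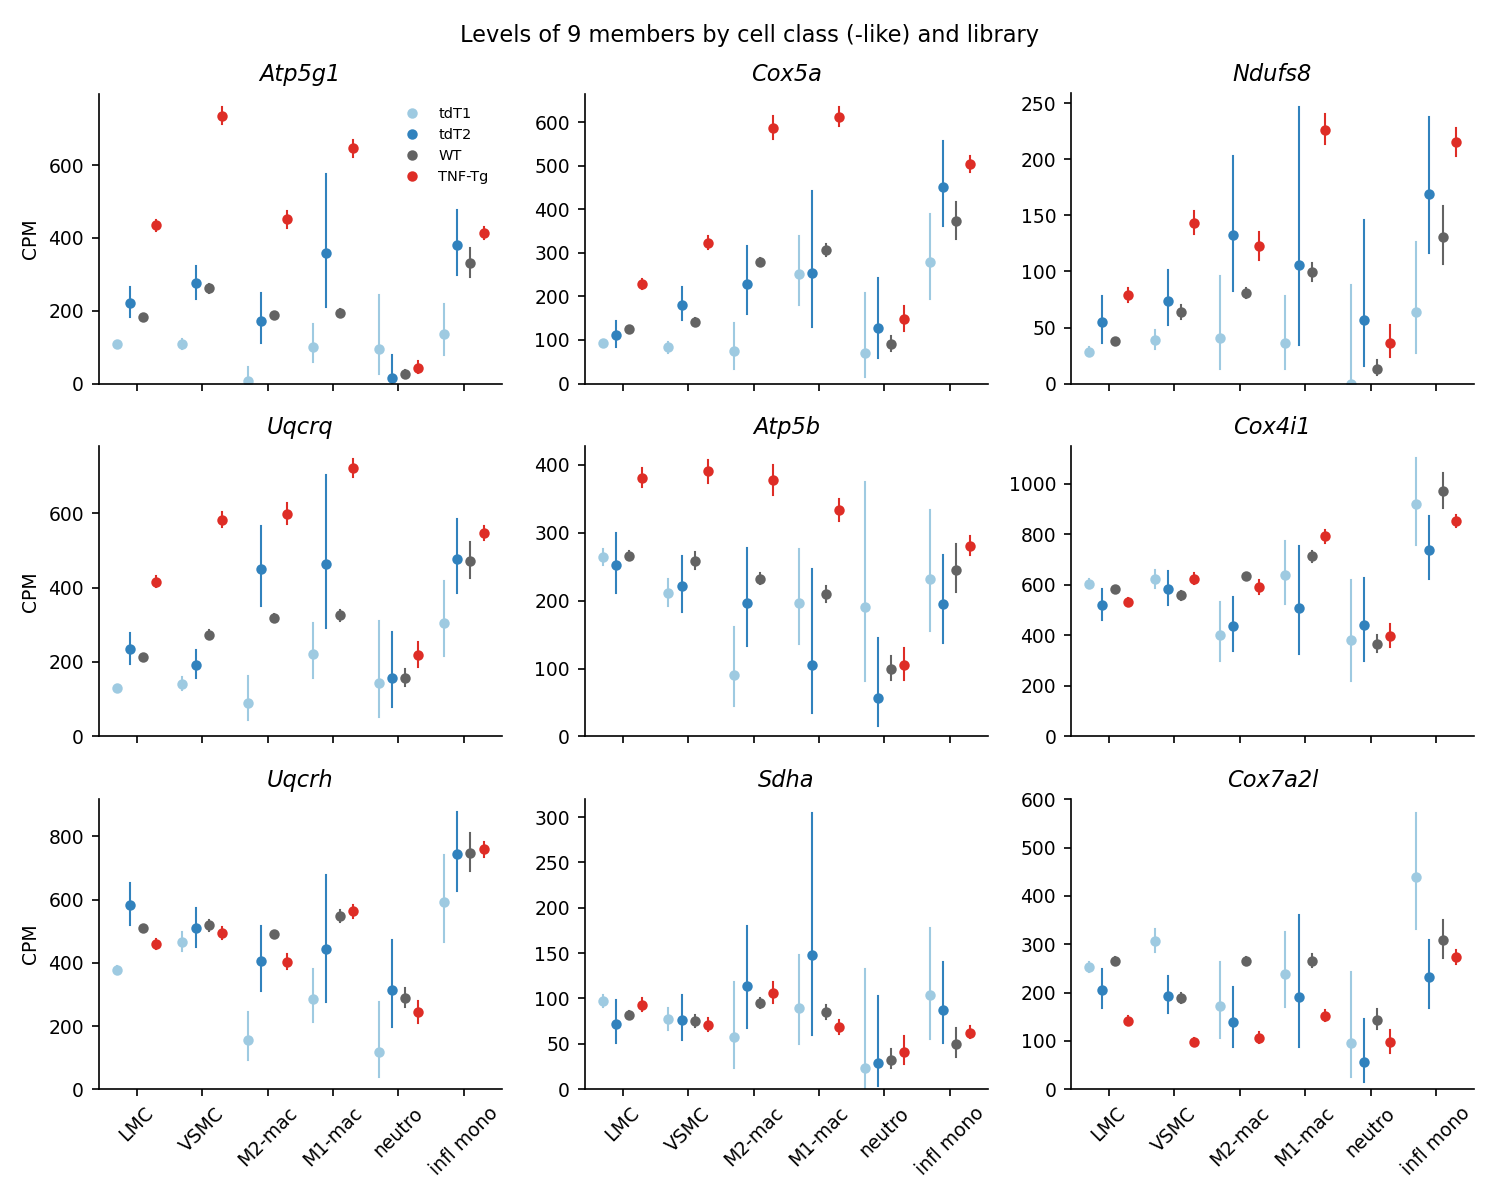
CPM (y axis, from 0) of 9 members in 6 cell classes (x axis) and 4 libraries, with exact Poisson intervals (95%, counting error only) as bars. *Atp5g1* and *Cox5a* are highest in TNF-Tg in both muscle-like and both macrophage-like classes, *Cox4i1*, *Uqcrh* and *Sdha* lie close between WT and TNF-Tg, and *Cox7a2l* is lowest in TNF-Tg in those 4 classes.

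Complex V, the ATP synthase, had the highest or joint highest ratios in the macrophage-like and VSMC-like classes, with medians of 0.60 in LMC-like, 0.81 in VSMC-like, 0.74 in M2-macrophage-like and 0.96 in M1-macrophage-like cells. All 17 of its members had a ratio above 0 in each of these 4 classes, and all 17 were past 1.5-fold higher in M1-macrophage-like cells. In that class, 16.2% of all genes tested and 51.1% of all genes up to 1000 bases were higher. Of the 17, 9 were higher in LMC-like, 14 in VSMC-like, 13 in M2-macrophage-like, 5 in neutrophil-like and 1 in inflammatory monocyte-like cells. Of all genes tested, 12.6%, 12.5%, 17.2%, 18.0% and 14.3% were higher there. Of those up to 1000 bases, 33.2%, 44.5%, 31.1%, 31.5% and 14.5% were. *Atp5g1* (chromosome 11, 96068852 to 96075670) is 1 of the 3 genes for the c ring subunit, which turns as protons pass. It was at 108.5 CPM (tdT1), 220.5 (tdT2), 184.0 (WT) and 435.0 (TNF-Tg) in LMC-like cells, a log2 ratio of 1.24 (interval 1.17 to 1.31). In VSMC-like cells it was at 107.7, 275.3, 261.5 and 735.4 CPM (1.49, interval 1.41 to 1.57), and in M1-macrophage-like cells at 101.5, 359.0, 193.7 and 645.9 CPM (1.74, interval 1.64 to 1.83). It had the highest ratio of the members with at least 200 UMIs in all 4 muscle-like and macrophage-like classes, and TNF-Tg was its highest library there.

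The other c ring genes had smaller ratios. *Atp5g2* was at 341.2 CPM in WT against 517.8 in TNF-Tg LMC-like cells (0.60), and *Atp5g3* at 189.9 and 319.7 CPM (0.75). *Atp5k*, subunit e at the interface between ATP synthase dimers, was at 124.1 CPM (tdT1), 326.1 (tdT2), 199.2 (WT) and 417.0 (TNF-Tg) in LMC-like cells (1.07). For this gene, tdT2 lay far above tdT1 and above WT. The catalytic head had LMC-like ratios of 0.56 for *Atp5a1* (α) and 0.52 for *Atp5b* (β), below the complex V median of 0.60. Among subunits of the central stalk, *Atp5c1* (γ) had 0.28 and *Atp5d* (δ) 0.49. *Atp5e* (ε), added after its values were seen, had 0.78. *Atp5b* was at 264.1 CPM (tdT1), 252.6 (tdT2), 265.8 (WT) and 380.9 (TNF-Tg) in LMC-like cells (interval of the ratio 0.45 to 0.58). The values of the other 3 libraries lay close together, and TNF-Tg stood above them.

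Neutrophil-like and inflammatory monocyte-like cells shared only some of the members at the ends with the muscle-like and macrophage-like classes. Among members with at least 200 UMIs, *Cox7a2l* was lowest in neutrophil-like cells and in each of those classes. *Atp5k* and *Ndufs8* were also among the highest in LMC-like cells, and *Cox5a* in VSMC-like and M2-macrophage-like cells. The other members named below were not at the ends in those classes. In neutrophil-like cells only 35 members reached 200 UMIs, and *Atp5k* (0.69, interval 0.34 to 1.04), *Cox5a* (0.69, interval 0.30 to 1.08) and *Ndufa1* (0.66, interval 0.34 to 0.99) were highest. *Cox7a2l* (−0.57), *Ndufb11* (−0.45) and *Cox6a1* (−0.30, interval −0.69 to 0.08) were lowest. In inflammatory monocyte-like cells, with 71 WT and 496 TNF-Tg cells, *Ndufs8* (0.72), *Uqcrfs1* (0.70) and *Ndufs3* (0.68) were highest and *Ndufa12* (−0.47, interval −0.84 to −0.08), *Sdhc* (−0.31, interval −0.83 to 0.25) and *Atp5o* (−0.20, interval −0.41 to 0.02) lowest. The intervals of *Cox6a1*, *Sdhc* and *Atp5o* included 0.

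The 13 subunits encoded by mitochondrial DNA did not share the members' higher ratios. Their median log2 ratio was −0.04 in LMC-like, −0.42 in VSMC-like, 0.00 in M2-macrophage-like, −0.02 in M1-macrophage-like, −0.63 in neutrophil-like and −0.31 in inflammatory monocyte-like cells. Past 1.5-fold, 0 were higher and 1 was lower in LMC-like cells, and 0 were higher and 5 lower in VSMC-like cells, where 29.4% of all genes were lower. In each macrophage-like class 2 were higher and 1 was lower, in neutrophil-like cells 0 were higher and 8 lower, and in inflammatory monocyte-like cells 1 was higher and 2 were lower. Over all genes, in the order of the medians, 12.6%, 12.5%, 17.2%, 16.2%, 18.0% and 14.3% were higher. The shares lower were 15.7%, 29.4%, 14.2%, 29.7%, 19.7% and 16.5%. The macrophage-like counts higher were near these shares, and the neutrophil-like count lower was above its share. The 13 mitochondrial subunits summed to 12180 CPM in WT against 11930 in TNF-Tg LMC-like cells, while the nuclear members summed to 16250 and 24100 CPM. The tdT replicates also differed in opposite directions. In LMC-like cells the mitochondrial share of UMIs was 3.58% (tdT1) and 1.40% (tdT2), and the members' share 1.20% and 1.86%. In VSMC-like cells the mitochondrial share was 3.645% and 1.04%, and the members' share 1.29% and 2.07%. The mitochondrial share of UMIs also reflects damaged cells, so these values are not a level of transcription.

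Other mitochondrial and ribosomal lists were measured in the same way. The mitochondrial ribosomal proteins, which translate the mitochondrial subunits, had medians of 0.53 in LMC-like, 0.64 in VSMC-like, 0.52 in M2-macrophage-like and 0.71 in M1-macrophage-like cells, and 33 of 78 were higher past 1.5-fold in LMC-like cells with none lower. Assembly factors had medians of 0.42, 0.52, 0.46 and 0.42 in the same classes, with 9 of 31 higher and none lower in LMC-like cells. The electron carriers had 0.29, 0.43, 0.44 and 0.45, and enzymes of the tricarboxylic acid cycle had 0.24, 0.25, 0.46 and 0.34. Of the 15 cycle enzymes, 1 was past 1.5-fold higher in LMC-like, 1 in VSMC-like, 5 in M2-macrophage-like and 3 in M1-macrophage-like cells, and none was lower. The regulators, such as *Nrf1*, *Gabpa* and *Tfam*, had medians of −0.06, −0.39, 0.05 and −0.09. None of 11 was past 1.5-fold in LMC-like cells, and 3 of 10 were lower in VSMC-like cells. In M2-macrophage-like cells 2 of 11 were higher, and in M1-macrophage-like cells 2 of 11 were higher and 1 lower. Over all genes, the shares higher in the 4 classes were 12.6%, 12.5%, 17.2% and 16.2%, and those lower 15.7%, 29.4%, 14.2% and 29.7%. The regulators' 3 of 10 lower in VSMC-like and 2 of 11 higher in M2-macrophage-like cells were near these shares. Cytosolic ribosomal proteins had medians of 0.06, 0.32, 0.14 and 0.36. They summed to 209500 CPM in WT LMC-like cells, where the members summed to 16250 CPM. The lists were not matched for level or transcript length. The members' medians were above those of each of these lists in the 4 classes, with no test between lists. In neutrophil-like cells the electron carriers (1.39, 3 genes tested) and the mitochondrial ribosomal proteins (0.51) had medians above the members' 0.43. In inflammatory monocyte-like cells the electron carriers did (0.43 against 0.31). By summed UMIs, the mitochondrial ribosomal proteins had log2 ratios of 0.58, 0.69, 0.63 and 0.95 in the 4 classes. The members had 0.57, 0.73, 0.59 and 0.89.

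Some members have tissue-restricted isoforms, which were read in all cells of WT and TNF-Tg. *Cox7b2* and *Cox8c*, known from testis, had 0 UMIs in both, which allows up to 0.0436 CPM in WT against 0.0799 in TNF-Tg (3 UMIs). *Cox4i2*, known from lung, had 11 and 3 UMIs, and *Cox8b*, known from heart and skeletal muscle, 7 and 6. *Ndufa4l2*, a paralog of *Ndufa4* known to respond to hypoxia, was in VSMC-like cells at 15.7 CPM (tdT1), 43.7 (tdT2), 25.3 (WT) and 30.8 (TNF-Tg), and in LMC-like cells at 2.57, 5.65, 2.02 and 2.21 CPM. Thinned to 3000 UMIs, 7.12% of WT and 9.56% of TNF-Tg VSMC-like cells had a UMI. Without thinning, macrophage-like sums had at most 0.204 CPM of it, so the VSMC-like level was not at the level seen in cells that should lack the gene. *Cox7a1*, a heart and skeletal muscle isoform, was higher in TNF-Tg macrophage-like cells, at 11.4 CPM in WT against 25.7 in TNF-Tg M2-macrophage-like cells (1.18, interval 0.77 to 1.57) and at 7.91 against 22.9 CPM in the M1-macrophage-like class (1.53), while LMC-like cells had 4.89 and 4.29 CPM.

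Cell classes were compared over the 4 libraries with the quasi-likelihood test of edgeR on 16 sums of UMIs (LMC-like, VSMC-like, macrophage-like and neutrophil-like), with library as a block. It fitted 10390 genes, 79 of them members, and calls were made at a Benjamini-Hochberg adjusted p under 0.01. Since the classes were made from the cells tested, the p-values tell how far genes separated them in these libraries. Macrophage-like over stromal cells (the mean of LMC-like and VSMC-like), 1 member was higher and 2 were lower, against 22.9% and 21.9% of all genes tested. DESeq2, also at an adjusted p under 0.01, called 1 of 79 members higher and 21 lower, and 1891 and 3445 of all 10390 genes. At an unadjusted p under 0.05, edgeR had 5 members higher and 6 lower. The members' median log2 fold change was −0.04. *Cox5a* rose by 0.91 ± 0.24 (SE) on the log2 scale (edgeR adjusted p = 0.00246). It was at 176.3 CPM (tdT1), 234.7 (tdT2), 289.4 (WT) and 605.2 (TNF-Tg) in macrophage-like cells, above both muscle-like classes of the same library in all 4. Without the WT library, or without the TNF-Tg library, 0 members were called higher, so this call rested on both. *Ndufv1* fell by 0.78 ± 0.22 (edgeR adjusted p = 0.00444) and was lower in macrophage-like than in both muscle-like classes in 4 of 4 libraries. *Ndufa4l2* fell too (edgeR adjusted p = 5.85e-11). Its macrophage-like sums held 0 UMIs in both tdT libraries, and its fitted fold change of −5.95 ± 0.47 depends on the prior count.

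LMC-like against VSMC-like cells, 0 members were higher and 2 were lower in edgeR, where 2.95% and 3.01% of all genes were. DESeq2, also at an adjusted p under 0.01, called 0 of 79 members higher and 5 lower, and 279 and 346 of all 10390 genes. At an unadjusted p under 0.05, edgeR had 0 members higher and 5 lower. The members' median was −0.30, so most levels were somewhat lower in LMC-like cells without passing the threshold singly. The called members were *Ndufa4l2* (−3.44 ± 0.27, edgeR adjusted p = 2.19e-09), whose values are given above, and *Cox6b2* (−3.21 ± 0.32, edgeR adjusted p = 7.09e-08), an isoform of subunit 6b known from testis. *Cox6b2* was at 12.9 CPM (tdT1), 41.8 (tdT2), 15.9 (WT) and 7.23 (TNF-Tg) in VSMC-like cells, and at 0.733, 5.65, 1.80 and 1.38 CPM in LMC-like cells. All 4 libraries had the higher value in VSMC-like cells.

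Neutrophil-like over macrophage-like cells, 0 members were higher and 27 of 79 were lower, against 16.5% and 25.4% of all genes. DESeq2, also at an adjusted p under 0.01, called 0 of 79 members higher and 52 lower, and 1384 and 3670 of all 10390 genes. At an unadjusted p under 0.05, edgeR had 3 higher and 38 lower. The members' median was −0.59 and that of all genes −0.48. The lowest were complex I members: *Ndufc2* (−3.59 ± 0.40, edgeR adjusted p = 1.25e-07), *Ndufa5* (−3.40 ± 0.42) and *Ndufa11* (−3.18 ± 0.42). *Ndufc2* was at 114.1 CPM (tdT1), 268.9 (tdT2), 242.6 (WT) and 333.5 (TNF-Tg) in macrophage-like cells, and at 0, 0, 9.49 and 17.3 CPM in neutrophil-like cells. The neutrophil-like sums of tdT1 and tdT2 held only 19 and 30 cells with 42079 and 70350 UMIs. Values of 0 there do not show absence. The least of the called members were *Ndufb10* (−1.02), *Ndufv2* (−1.14) and *Ndufb8* (−1.19). With the size factors of DESeq2 in place of the trimmed mean of M values (TMM), 52 members were lower and the medians were −0.98 for members and −1.01 for all genes, so the members' count moved with the scale of all genes.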

How the data were processed

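The authors made the 4 matrices of UMI counts from 10x 3′ libraries with Cell Ranger (3.1.0 for tdT1 and 6.0.1 for the others, per the file headers; mm10 in the submitters' processing notes) and deposited raw counts per gene and cell. Of the listed genes, 30406 were common to all libraries. Reads shared with processed pseudogenes of members may be lost in such counting, which was not tested. The members and gene lists were chosen with earlier results of these data known.

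Cells were clustered with Seurat 5.3.0 on 1997 variable features without the members (30 dimensions, resolution 0.5), and naming a cluster took 3 or more markers among its top 50 genes. Scrublet (scanpy 1.11.5) marked 4, 0, 137 and 74 doublets in tdT1, tdT2, WT and TNF-Tg, which were kept. UMIs were summed per class and library. Shares and ratios carry 95% intervals for counting error only, and a count of 0 allows up to 3 UMIs. Genes needed 20 UMIs over both libraries and 1 in each. Members named were core subunits, isoforms, the 3 highest and 3 lowest ratios of a class (with at least 200 UMIs), and, per edgeR contrast, the 3 highest and 3 lowest; *Sdhd* and *Atp5k* promoters were chosen after their values were seen. Cell classes were compared with edgeR 4.0.16 (quasi-likelihood, TMM, library as block, adjusted p under 0.01) and with DESeq2 1.42.0 as an alternative, after tests on simulated data. The tdT replicates came from separate pools of mice, per the study's methods. The block takes out differences in level between libraries, so p-values measure how class differences vary over these 4 libraries. The values of 1 member are not reported here.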

Additional observations from a re-analysis of the deposited data

Results flagged for a closer look

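Some members had ratios of TNF-Tg over WT of opposite sign in different classes, with intervals that exclude 0 in both. These differences were not tested, since each group is 1 library, and the intervals cover counting error only. The sign also depends on the zero of the scale. The median of all genes up to 1000 bases ran from 0.17 in inflammatory monocyte-like to 0.62 in M1-macrophage-like cells. With that median set to 0, a ratio given here as above 0 can fall below it. *Cox4i1* had a log2 ratio of −0.13 in LMC-like and 0.16 in VSMC-like cells. *Ndufa6* had −0.37 in LMC-like and 0.29 in M1-macrophage-like cells. *Sdha* had −0.32 in M1-macrophage-like and 0.18 in LMC-like cells. *Ndufb11*, a membrane-arm subunit of complex I, had −0.45 in neutrophil-like and 0.64 in M1-macrophage-like cells. *Ndufa12* had −0.47 in inflammatory monocyte-like and 0.76 in M2-macrophage-like cells.

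*Cox6a2*, the heart and skeletal muscle isoform of subunit 6a, was at 87.6 CPM in TNF-Tg dendritic cell 1-like cells, a class outside the comparisons above, and had 0 UMIs in the 150 WT cells of that class, which allows up to 1.31 CPM. The signal was in 11 of 252 TNF-Tg cells, and 6 cells held 254 of its 272 UMIs. In M1-macrophage-like cells the same gene had 33 UMIs in WT and 7 in TNF-Tg.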

How the results depend on the processing

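The members' median log2 ratio of TNF-Tg over WT stayed above 0 under all alternatives run. With the median of short transcripts set to 0 (chosen after the data were seen) it was 0.19 in LMC-like, 0.20 in VSMC-like, 0.23 in M2-macrophage-like, 0.25 in M1-macrophage-like, 0.12 in neutrophil-like and 0.14 in inflammatory monocyte-like cells. On that short-transcript scale, 65 of 81, 64 of 81, 69 of 81, 68 of 81, 53 of 71 and 70 of 79 members kept their sign, in the same order. In M1-macrophage-like cells, 2 members past 1.5-fold changed sign. With a gate on markers the members' median was 0.64 in VSMC-like and 0.75 in M1-macrophage-like cells. Without ribosomal and mitochondrial UMIs it was 0.80 in VSMC-like cells. With the median of all genes set to 0 it was 0.92 in VSMC-like and 1.03 in M1-macrophage-like cells. As a mean over cells it was 0.64 in VSMC-like, 0.29 in neutrophil-like and 0.34 in inflammatory monocyte-like cells, and thinned 0.27 and 0.34 in the last 2. For macrophage-like over stromal cells, edgeR's 3 called members became 8 at a threshold of 0.05, 14 with DESeq2's size factors, 6 with no filter, 10 without cells above 10% mitochondrial UMIs and 22 in DESeq2. They were 7 without both tdT libraries (chosen after the data were seen). Leaving out 1 library gave 1 to 5, with 5 without tdT1, 5 without tdT2, 2 without WT and 1 without TNF-Tg. For LMC-like over VSMC-like cells, 2 became 5 in DESeq2, and 1 to 2 with 1 library left out (1 without WT). For neutrophil-like over macrophage-like cells, 27 became 52 with DESeq2's size factors, 55 without cells above 10% mitochondrial UMIs and 52 in DESeq2, and 23 to 32 with 1 library left out. The causes were not tested. No paired analysis was possible because TNF-Tg and WT are 1 library each with no test, and the class comparisons already hold the library as a block. Depth limits the isoforms and the neutrophil-like class, where 35 members reached 200 UMIs.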

Other observations

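The members' share of UMIs was also read in classes that were not among the 6 compared. Dendritic cell 1-like cells held 2.35% in WT (150 cells) and 3.36% in TNF-Tg (252 cells). T-cell-like cells held 2.56% (78 cells) and 2.68% (100 cells). Mast cell-like cells held 2.72% (100 cells) and 2.15% (19 cells). Erythroid-like cells, which lose their mitochondria as they mature, held 0.0498% in WT (54 cells) and 0.0410% in TNF-Tg (46 cells), far below all other named classes.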
